A study of Mus musculus with 8 samples.

Results

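Transcripts of 10 genes were followed in neural stem and progenitor cells of the mouse, grown as 8 cultures with and without Kat7, a histone acetyltransferase gene of the MYST family. The genes were the FGF receptors Fgfr1, Fgfr2 and Fgfr3, the ERBB receptors Egfr, Erbb2, Erbb3 and Erbb4, and the Sprouty inhibitors Spry1, Spry2 and Spry4. They were chosen by name and matched by Entrez identifier, and all 10 were among the 27179 genes in the deposited table of read counts. A filter on low counts kept 13498 genes, with 9 of the 10 among them. Erbb3 was left out, and Erbb4 passed on its reads in the intact cultures, so no count over the genes that passed is used as support here.

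Each culture was a neurosphere isolate, a floating cluster of dividing neural precursors, grown in proliferation medium from 1 C57BL/6 fetus at E14.5 (days of gestation). There were 4 Kat7 intact fetuses (Kat7+/+NesCreT/+) and 4 Kat7 deleted fetuses (Kat7lox/loxNesCreT/+). All 8 carried the Cre recombinase transgene, which the Nestin sequences switch on in neural precursors, so the controls share it and deletion can differ between cells. The fetuses came from 6 litters of 1 genotype each, with intact replicates 1 and 2 sharing a litter and deleted replicates 3 and 4 another. Effects of litter therefore cannot be told apart from those of genotype.

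FGF and ERBB receptors are receptor tyrosine kinases of the cell surface. A bound ligand pairs the receptors, and their phosphorylated tails recruit adaptors that switch on RAS and then the kinases RAF, MEK and ERK. Both families keep neural precursors dividing, FGF receptors early in the embryo and Egfr increasingly in late embryonic progenitors and glial precursors. Sprouty proteins are induced by the signal and dampen it, so their transcripts are often read as a trace of pathway activity.

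Libraries held 10687817 to 22444359 counts, at which 1 read was worth 0.0436 to 0.0918 CPM (reads per library of a common size, set by the TMM method). Kat7 stood at 77.1 to 92.1 CPM with the gene intact, and deleted replicates 1 to 4 kept 26.4, 0.367, 13.9 and 0.087 CPM, so Kat7 reads were uneven among the deleted cultures. Which exons the deletion removes was not given in the sources used here. Of 10 neural stem and progenitor markers 0 were called, against 7.90% of all tested genes. Their summed levels were 3485 to 4420 CPM in intact and 2345 to 4559 CPM in deleted libraries. At an unadjusted p under 0.05 edgeR also found 0 of them, against 26.2% of all tested genes. Counts of 0 among so few genes do not show that the levels were equal. Prom1 was near 0 in all libraries (0.0634 to 1.19 CPM), and Sox1 in deleted replicates 1 and 3 (0.190 and 1.98 CPM, against 12.3 or more in the others). Microglia markers summed to 2.74 to 3.71 CPM in intact cultures, then 0.609 to 2.41 in deleted libraries, and endothelial markers to 3.27 to 6.94 and 1.65 to 15.7. Of the microglia sum P2ry12, not called, held 2.49 to 3.41 CPM in intact libraries. Tek, not called, held 13.9 CPM of the endothelial sum in deleted replicate 2. Kdr, called lower after passing the filter on its intact reads, was at 1.14 CPM or less in every library. The mitochondrial genome took 18.95% to 23.5% of intact counts, and its share in deleted replicates 1 to 4 was 29.9%, 18.95%, 17.1% and 34.4%.

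Per length of transcript, the Sprouty genes and Egfr led the set in intact cultures. In RPKM, which divides CPM by the gene length in kilobases, mean intact levels were 128 ± 42.1 for Spry4, 71.7 ± 11.6 for Spry2, 61.1 ± 8.07 for Spry1 and 54.8 ± 4.93 for Egfr (SD, n = 4). Neighbours in this order overlapped between libraries. Fgfr1 followed at 34.2 ± 3.62 RPKM, below every Egfr value, and a wide gap separated it from Fgfr3 at 4.06 ± 1.41, Erbb2 at 2.24 ± 0.274, Erbb4 at 2.06 ± 0.39 and Fgfr2 at 1.54 ± 0.818, whose neighbours overlapped. Erbb3 was last at 0.0923 ± 0.024 RPKM. In deleted cultures Fgfr1 (57.6 ± 5.58 RPKM) stood beside Egfr (53.1 ± 17.6), and Fgfr3 (12.1 ± 1.77) stood above Erbb2 (3.46 ± 0.946). The mean of Fgfr2 (8.77 ± 6.94) was also above that of Erbb2. In deleted replicate 4, though, Fgfr2 (2.55 RPKM) was below Erbb2 (4.85). Erbb4 had moved next to Erbb3 at the bottom, with 0.175 ± 0.163 and 0.0597 ± 0.0233 RPKM.

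**Figure D1:**
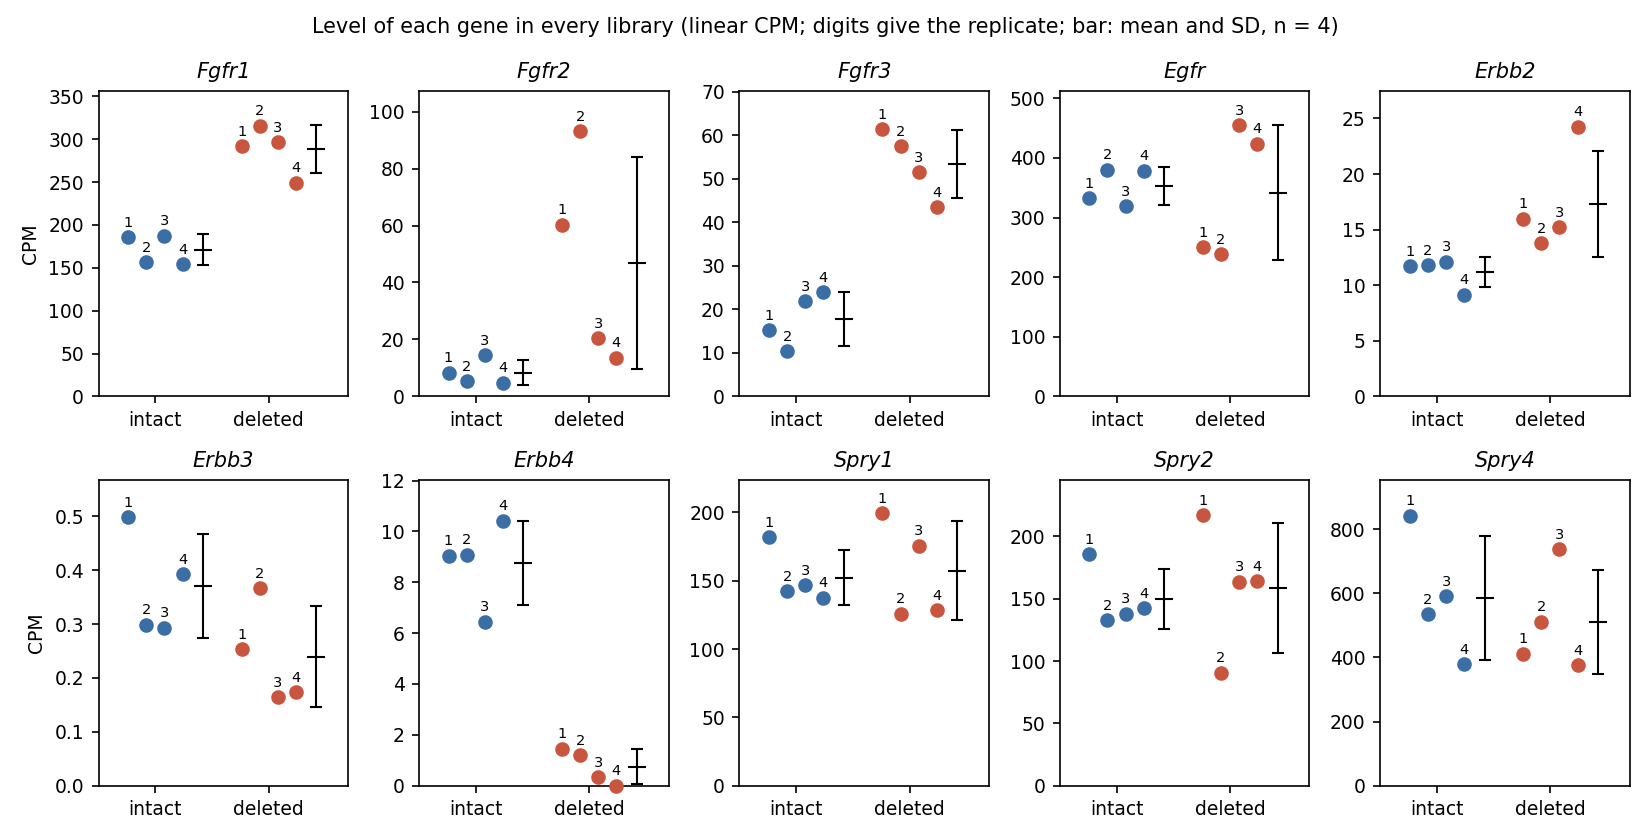
CPM of each gene (vertical axis, linear) in the 4 intact (blue) and 4 deleted (red) libraries, with replicate numbers, and the mean and SD beside each group. Fgfr1, Fgfr3 and Erbb2 are higher in every deleted library than in any intact one and Erbb4 is lower, while the Sprouty genes overlap.

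Of the FGF receptors, 2 rose in the Kat7 deleted cultures, Erbb4 fell, and the Sprouty genes and Egfr were not called. By edgeR's quasi-likelihood test with adjustment over all 13498 genes, 2 of the 9 tested genes were called higher (Fgfr1 and Fgfr3) and 1 lower (Erbb4). Across all tested genes 7.90% were called, 5.10% higher and 2.80% lower. The genotypes did not overlap for 4 of the 9, Erbb2 being the other, against 19.9% of all tested genes (10.7% all higher, 9.21% all lower). At an unadjusted p under 0.05 there were 5 of the 9, against 26.2% of all tested genes (15.8% on the higher side and 10.4% on the lower). Erbb4, which passed the filter on its intact reads, is in each of these counts, and none of them is used as support. In bulk RNA, fewer cells that make a transcript and less of it per cell cannot be told apart.

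Fgfr1 (Entrez 14182, chr8:25518759-25575718 in GRCm38) is a receptor through which FGF2 drives precursor division. It stood at 186, 156, 188 and 154.5 CPM in intact replicates 1 to 4 and, in the same order, deleted cultures stood at 292, 316, 296 and 249.5 CPM. The genotypes were separated by a gap, and the deleted libraries lay close together. The mean went from 171 ± 18.1 to 288 ± 27.9 CPM (SD, n = 4), a log2 fold change of 0.75 ± 0.13 (edgeR adjusted p = 0.015). The value kept its size with any library left out (0.68 to 0.82), though the call ended without intact replicate 1, 2 or 4 (adjusted p up to 0.0757), with total counts as the scaling (0.0789) and with littermates summed (0.0631).

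Fgfr3 (Entrez 14184, chr5:33721724-33737068) marks glial progenitors and astrocytes in the developing brain. Intact replicates 1 to 4 held 15.2, 10.4, 21.9 and 23.9 CPM and deleted replicates 61.3, 57.5, 51.5 and 43.4 CPM. The lowest deleted library stood well above the highest intact one, and the deleted cultures varied less on the log2 scale (SD 0.22) than the intact ones (SD 0.54). The log2 fold change was 1.58 ± 0.26 (edgeR adjusted p = 0.0128), with the call lost without intact replicate 1 (0.0508) and with littermates summed (0.0545). Of 10 astrocyte markers 4 were called higher and 0 lower, against 5.10% and 2.80% of all tested genes. The 10 markers summed to 682 to 1543 CPM in intact libraries, then 5234, 578, 1367 and 1231 CPM in deleted replicates 1 to 4. Slc1a3, not called, made up 337 CPM of that sum in deleted replicate 2 and 3037 CPM in deleted replicate 1. The 4 called markers stood above every intact library in deleted replicate 2, as did Gfap and Aldh1l1, which were not called. Aqp4 was at 15.1 CPM there (intact up to 1.91), Apoe at 33.1 (11.6), Aldoc at 72.1 (62.1) and Clu at 3.03 (2.79). The others stood below every intact library there. Slc1a2 was at 5.33 CPM (intact 29.8 or more), Slc1a3 at 337 (543), Gja1 at 14.7 (27.5) and S100b at 3.03 (3.95). Fgfr3 stood at 57.5 CPM in deleted replicate 2 and at 61.3 CPM in deleted replicate 1. The part of astrocytes in the rise was not tested. Exons of a transcript on the other strand cover 13.9% of Fgfr3's exonic bases in the GENCODE annotation, and the strand setting of the counting was not given in the sources used here.

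Fgfr2 (Entrez 14183, chr7:130162451-130266808) is an FGF receptor of radial glia and astroglia. It stood at 8.27, 5.44, 14.4 and 4.89 CPM in intact replicates 1 to 4 and, in the same order, at 60.2, 93.2, 20.4 and 13.7 CPM in the deleted ones. Deleted replicates 1 and 2 were far above the rest, while deleted replicate 4 lay below intact replicate 3, so the genotypes overlapped. The log2 fold change of 2.50 ± 0.65 had an edgeR adjusted p of 0.0511, just short of the threshold. It was 1.04 without deleted replicates 1 and 2 (adjusted p = 0.14), a choice made after the values were seen, and was past the threshold by DESeq2 (0.000487), without deleted replicate 4 (0.0348) and without deleted replicates 1 and 3 (0.0425) or 1 and 4 (0.0492). The pair of high libraries differed in their markers. Astrocyte markers summed to 5234 CPM in deleted replicate 1, and mesenchymal markers to 783 CPM in deleted replicate 2, 242 in 4, 22.6 in 3 and 5.71 in 1, against 3.03 to 4.37 CPM in intact libraries. The mesenchymal sum came mainly from Col3a1 (333.5 CPM), Acta2 (191), Thbs2 (172) and Dcn (84.1) in deleted replicate 2. In deleted replicate 4 it came mainly from Thbs2 (132 CPM) and Acta2 (106.5). Lum, Col1a1, Col1a2, Pdgfrb and Tagln were at 2.61 CPM or less in every library. The part of either marker set in the Fgfr2 level was not tested.

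As a family, the 3 FGF receptors summed to 34.6 to 45.2 RPKM in intact and 62.2 to 93.6 RPKM in deleted libraries. Fgfr1 made up 82.9% to 90.2% of that sum in intact libraries, then 69.8%, 67.4%, 79.2% and 80.0% in deleted replicates 1 to 4. The share of Fgfr3 was 6.83% to 14.6% and then 14% to 16.7%, and that of Fgfr2 2.46% to 5.98% and then 4.10% to 18.6%. The log2 ratio of Fgfr1 to Fgfr3 was lower in all 4 deleted libraries, 3.14 ± 0.54 in intact and 2.25 ± 0.13 in deleted cultures, a difference of -0.89. An exact two-sided permutation test gave p = 0.0286, the smallest that 70 arrangements of 4 against 4 allow, and 0.0857 adjusted over the 9 pairs of tested genes within families. The ratio of Fgfr1 to Fgfr2 differed by -1.48 with overlap (exact permutation p = 0.0857, adjusted 0.154).

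**Figure D2:**
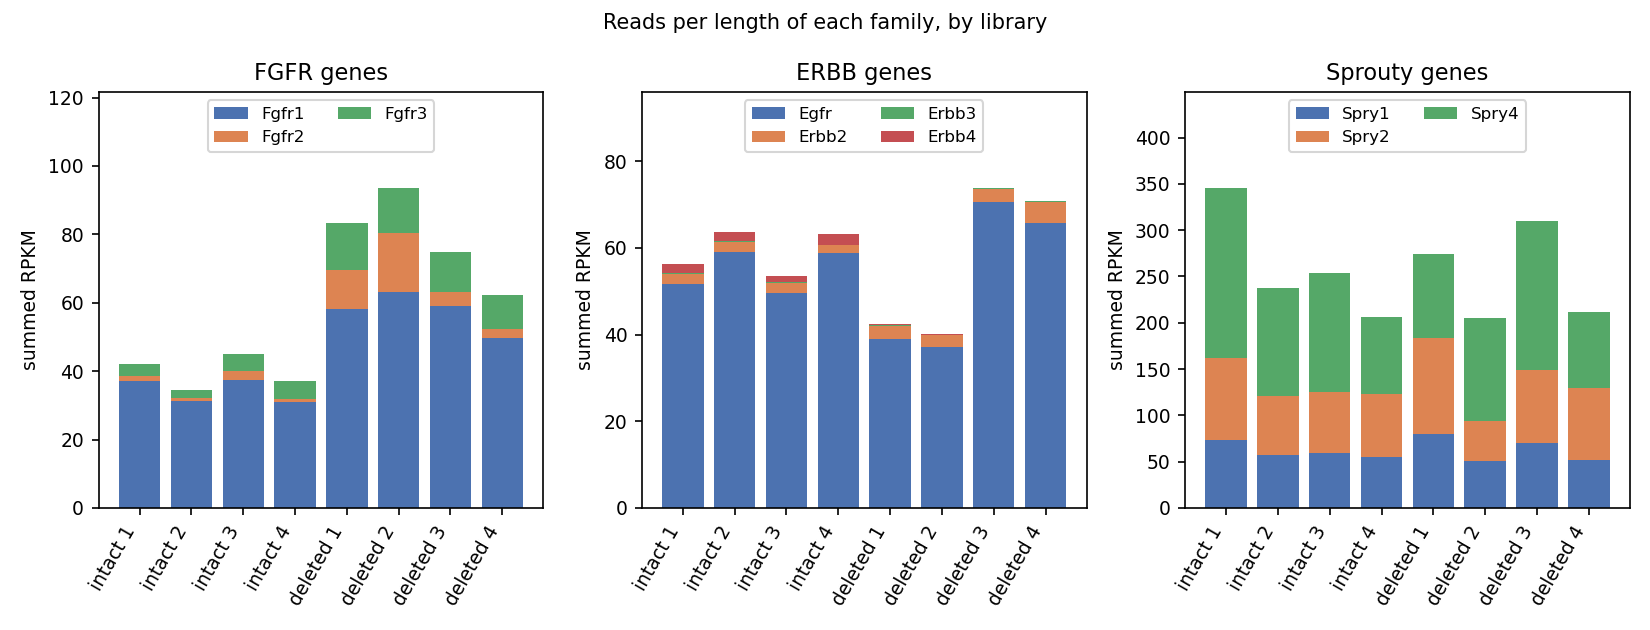
Summed RPKM (vertical axis, linear) of the FGF receptor, ERBB receptor and Sprouty genes in each library, stacked by gene. FGF receptor sums run from 34.6 to 45.2 RPKM in intact and from 62.2 to 93.6 RPKM in deleted libraries, and Egfr makes up 91.5% or more of the ERBB sum in all 8.

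RefSeq promoter windows were at hand for 7 of the 10 genes, and Fgfr1, Erbb3 and Spry4 are named only. Bases 250 to 51 before the RefSeq start (GRCm38.p6) are printed 5′ to 3′ for Fgfr3, which rose, Fgfr2, which was uneven, Erbb4, which fell, and Spry2, which was not called. Capitals mark the SP/KLF box GGGCGG and the E-box CAGCTG, on either strand. The Erbb4 window lies within the span of the gene (chr1:68031884-69108576), before a start inside it.
Fgfr3, chr5:33721474-33721673, plus strand: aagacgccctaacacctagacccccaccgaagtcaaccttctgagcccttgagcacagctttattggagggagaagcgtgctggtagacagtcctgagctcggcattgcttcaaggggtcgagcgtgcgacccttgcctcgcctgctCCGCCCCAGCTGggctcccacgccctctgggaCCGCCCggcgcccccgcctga
Fgfr2, chr7:130266859-130267058, minus strand: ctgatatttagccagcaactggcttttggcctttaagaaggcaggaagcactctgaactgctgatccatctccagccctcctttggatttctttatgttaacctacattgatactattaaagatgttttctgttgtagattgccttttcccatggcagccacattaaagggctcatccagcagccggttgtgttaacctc
Erbb4, chr1:69108110-69108309, minus strand: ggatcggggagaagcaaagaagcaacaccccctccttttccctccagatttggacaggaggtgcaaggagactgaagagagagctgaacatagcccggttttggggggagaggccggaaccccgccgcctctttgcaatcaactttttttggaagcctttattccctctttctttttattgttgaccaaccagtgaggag
Spry2, chr14:105896870-105897069, minus strand: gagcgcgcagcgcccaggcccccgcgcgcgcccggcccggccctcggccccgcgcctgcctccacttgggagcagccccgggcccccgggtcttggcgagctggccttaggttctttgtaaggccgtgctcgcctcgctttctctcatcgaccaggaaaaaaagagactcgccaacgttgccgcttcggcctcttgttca
In the 250 bases before the start, Fgfr3 held 19 CpG, Spry2 23, Erbb4 12 and Fgfr2 2, where the median of 32851 such windows is 6 (quartiles 2 and 16). The others were 24 at a further Fgfr3 start, 23 for Spry1, 16 for Erbb2 and 11 for Egfr. Fgfr3 held 3 SP/KLF boxes, a motif found in 32.7% of all windows, and 1 E-box, found in 13% of them, which follows an SP/KLF box directly without overlap. Fgfr2, Erbb2, Erbb4 and Spry2 held none of the 5 motifs searched on both strands, which also included the ETS core CCGGAAG (6.91% of windows), the AP-1 site TGANTCA (6.75%) and the CRE core TGACGT (6.47%). Egfr held 1 ETS core. These matches describe the letters of the windows only.

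Erbb4 (Entrez 13869, chr1:68031884-69108576), a neuregulin receptor of migrating interneurons and other neurons, was the only one of the 9 tested genes that was called lower. It passed the filter on its reads in the intact cultures, so its call supports nothing here. Intact replicates 1 to 4 held 9.05, 9.09, 6.46 and 10.4 CPM. Deleted replicates 1 to 4 held 1.46, 1.19, 0.329 and 0 CPM, from 23, 13, 6 and 0 reads, where a count of 0 allows up to 0.261 CPM in deleted replicate 4. Every deleted library was far below every intact one, and the deleted ones were spread widely (SD 1.698 on the log2 scale, against 0.29). The mean went from 8.76 ± 1.66 to 0.745 ± 0.692 CPM, a log2 fold change of -3.54 ± 0.74 (edgeR adjusted p = 0.0283). It was -4.15 without deleted replicate 1 (adjusted p = 0.015), and the call ended without any 1 intact library (up to 0.0912), without deleted replicate 3 (0.0613) and with littermates summed (0.0805). Neuron markers had 3 of 7 tested members called lower and 0 higher, against 2.80% and 5.10% of all tested genes. The called Neurod1 passed the filter on its intact reads (2.64 to 6.10 CPM, against 0.0918 to 0.634 CPM in deleted libraries). The neuron marker count therefore supports nothing here. The neuron markers summed to 33.1 to 50.7 CPM in intact cultures, then 17.9, 120, 16.5 and 14 CPM in deleted replicates 1 to 4. Dcx, not called, held 100.6 CPM of the sum in deleted replicate 2. There Snap25 (4.96 CPM) and Rbfox3 (8.17) were also above every intact library, and Tubb3, Elavl3, Elavl4, Syt1 and Neurod1 were below. Interneuron markers had 2 of 4 tested members called higher and 0 lower, against 5.10% and 2.80% of all tested genes. The called Dlx1 passed the filter on its deleted reads (0.604 to 2.96 CPM, against 0.179 to 0.436 CPM in intact libraries). This count therefore supports nothing here. The interneuron markers had sums of 8.66 to 15.2 CPM and then 11.5, 124, 12.6 and 68.2 CPM. Sp8, not called, held 102 and 52.8 CPM of the sums in deleted replicates 2 and 4. Dlx5, Dlx6, Gad2 and Lhx6 were at 0.196 CPM or less in every library, and Sst was at 0 in all. The part of these cell types in the fall of Erbb4 was not tested.

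Egfr (Entrez 13649, chr11:16752203-16913907), the EGF receptor, was split among the deleted cultures. Intact replicates 1 to 4 held 332, 380.3, 319 and 379 CPM, and deleted replicates 1 to 4 held 250.3, 238, 455 and 424 CPM. Deleted replicates 1 and 2 lay below every intact library and deleted replicates 3 and 4, which were littermates, above every one. The log2 fold change was -0.04 ± 0.23 (edgeR adjusted p = 0.924) and turned to 0.31 without deleted replicates 1 and 2 (adjusted p = 0.128). The same pair of libraries that was high in Fgfr2 was low in Egfr, a pattern noticed after the values were seen.

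Erbb2 (Entrez 13866, chr11:98412484-98437716) encodes the ERBB receptor with no known ligand, the preferred partner of the others. It held 11.7, 11.8, 12.1 and 9.16 CPM in intact cultures, then 16.0, 13.8, 15.2 and 24.3 CPM in deleted replicates 1 to 4. All deleted libraries were above all intact ones, deleted replicate 4 by the widest margin, yet the log2 fold change of 0.63 ± 0.21 was not called (edgeR adjusted p = 0.0971). It was past the threshold without deleted replicate 2 (0.0479) and was 0.42 without deleted replicate 4 (0.17). Erbb3, the kinase-impaired neuregulin receptor of glial precursors and Schwann cells, had 5 to 9 reads in each intact and 2 to 4 in each deleted library, too few to test.

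Among ERBB genes Egfr made up 91.8% to 93.1% of the summed RPKM in intact libraries and 91.5% to 95.7% in deleted ones. The share of Erbb4 went from 2.83% to 3.87% in intact libraries to 0.806%, 0.698%, 0.105% and 0% in deleted replicates 1 to 4. The log2 ratio of Egfr to Erbb4 was 4.75 ± 0.21 in intact and 9.04 ± 2.75 in deleted cultures, and that of Erbb2 to Erbb4 0.13 ± 0.45 and 5.13 ± 2.68. Neither overlapped, with an exact permutation p of 0.0286 and an adjusted p of 0.0857 for both, the lowest that this design gave over the 9 pairs. Both ratios rest on Erbb4, which passed the filter on its intact reads, so these p-values support nothing here. With 0 reads of Erbb4 in deleted replicate 4, the ratios there (12.7 and 8.90) depend on the pseudocount of 0.5 counts, and they widen the SDs. The ratio of Egfr to Erbb2 differed by -0.70 with overlap (exact permutation p = 0.0857, adjusted 0.154).

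The Sprouty genes, feedback inhibitors of RAS signalling from both receptor families, were not called in either direction. Spry1 (Entrez 24063, chr3:37639947-37644599) held 182, 142, 147 and 138 CPM in intact cultures, then 199.6, 126, 176 and 128 CPM in deleted replicates 1 to 4. Spry2 (Entrez 24064, chr14:105891947-105896819) held 186, 133, 138 and 142 CPM and then 217, 90.5, 164 and 164 CPM. Spry4 held 843, 534, 590.1 and 378 CPM and then 412, 511, 737 and 376 CPM. For each of the 3 the genotypes overlapped, with deleted replicate 1 highest and deleted replicate 2 lowest for Spry1 and Spry2. For Spry4 intact replicate 1 was highest, and intact replicate 4 and deleted replicate 4 were lowest. Log2 fold changes were 0.05 ± 0.18, 0.09 ± 0.25 and -0.20 ± 0.29 (edgeR adjusted p = 0.891, 0.855 and 0.692), and those of Spry1 and Spry2 were below 0 with total counts as the scaling (-0.10 and -0.08), which moved the median of all genes from 0.05 to -0.09. These p-values do not show that the levels were equal.

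Ratios within the Sprouty family overlapped between genotypes for all 3 pairs. The log2 ratio of Spry1 to Spry2 was -0.23 ± 0.08 in intact and -0.23 ± 0.35 in deleted cultures, with a difference of -0.002 (exact permutation p = 1). Those of Spry1 and Spry2 to Spry4 differed by 0.22 and 0.23 (exact permutation p = 0.514 and 0.629). Spry4 made up 40.0% to 53.1% of the Sprouty RPKM in intact and 32.8% to 54.3% in deleted libraries, lowest in deleted replicate 1. A transcript of the other strand covers 24.4% of Spry1's exonic bases.

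**Figure D3:**
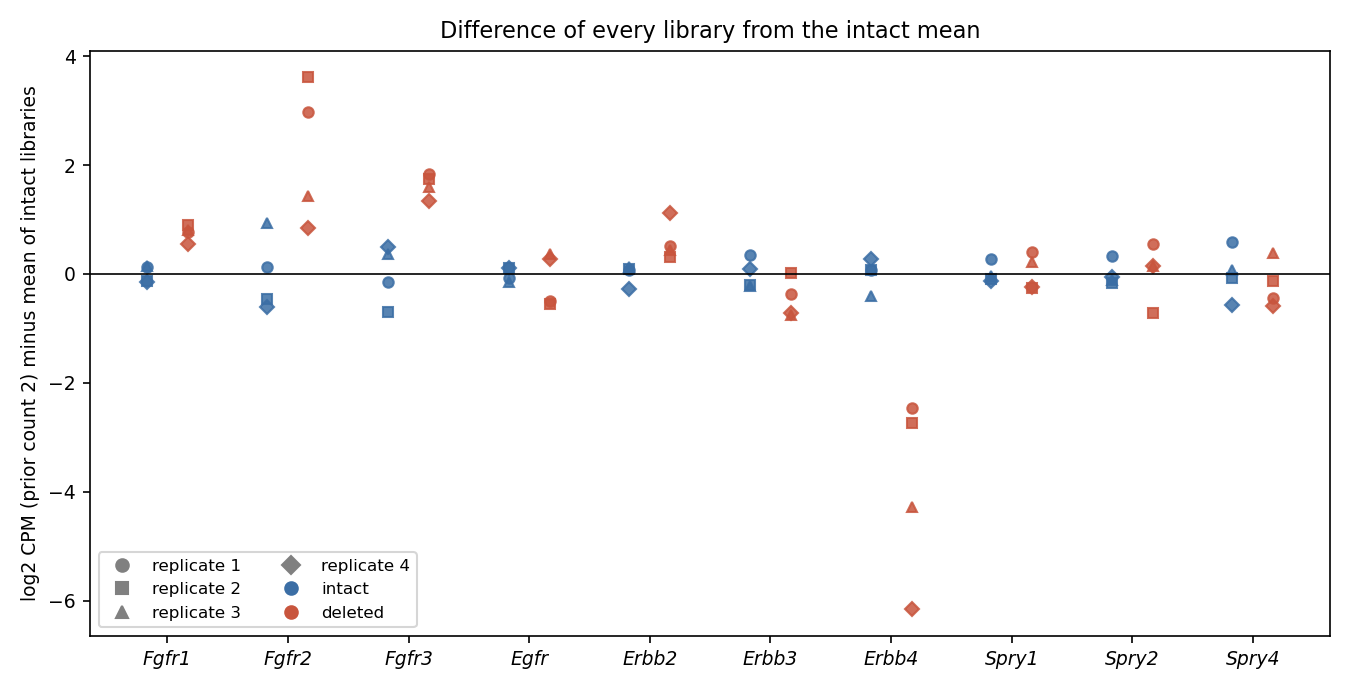
Log2 CPM of each gene in each library minus its mean over the intact libraries (vertical axis), with blue for intact libraries and a symbol for each replicate. Deleted libraries (red) lie from 0.55 to 0.89 above 0 for Fgfr1 and from 1.35 to 1.84 for Fgfr3, and from -6.16 to -2.47 for Erbb4.

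The genes whose profiles over the 8 libraries lay nearest to each called gene were listed by the root mean square difference of log2 CPM, each profile centred on its intact mean. For Fgfr1 they were Cd164, a sialomucin (0.10), Tjp1, a tight junction scaffold (0.10), and Srd5a3 (0.11). For Fgfr3 the nearest with symbols were C1ql1, a secreted C1q-like protein (0.16), and Cntnap1, a paranodal adhesion protein (0.27), at mean levels of 0.361 and 1.02 CPM in intact cultures. Erbb4 had no close neighbour, the nearest being AI504432 at 0.60, Slc8a1, a sodium and calcium exchanger, at 0.72 and Plppr1 at 0.80. Among the 10 genes, Spry1 and Spry2 were the closest pair (0.22) and Erbb4 was at least 2.85 from every other tested one.

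Of the further genes of the pathway, listed by role, 74 were tested, with 4 called higher and 2 lower (7.90% of all tested genes being called). Between the receptors and ERK, 2 of 14 adaptor genes and 1 of 14 cascade genes were called, and most of all tested genes were not called either. The median log2 fold change was 0.02 over 14 adaptor genes and 0.15 over 14 tested genes of the RAS, RAF, MEK and ERK cascade, against 0.05 over all tested genes.

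In the FGF family 16 of 22 genes were too low to test, Fgf2 among them with 3 to 7 reads in intact and 0 to 10 in deleted libraries. Of the 6 tested, edgeR called Fgf13, which passed the filter on its 13 to 20 reads in each intact library, against 0 to 5 in the deleted ones, so its call supports nothing here. It was not tested under a filter of 1 CPM in 4 libraries. Fgf13 encodes an FGF-like protein that stays in the cell and does not act as a classical ligand. Its mean was 1.00 ± 0.33 CPM in intact and 0.0916 ± 0.129 CPM in deleted cultures, with 0 reads in deleted replicates 1 and 4 (log2 fold change -3.19 ± 0.77, edgeR adjusted p = 0.0422). The call ended without any 1 intact library or deleted replicate 4 (adjusted p up to 0.123) and with littermates summed (0.0979). Fgf1, the most abundant, was chosen after its values were seen. It stood at 34.9 to 55.9 CPM in intact cultures, then at 210.2, 7.16, 55.7 and 82.7 CPM in deleted replicates 1 to 4 (log2 fold change 0.99 ± 0.75, edgeR adjusted p = 0.436), with a value of 0.11 without deleted replicate 1. Fgfrl1, a receptor relative without a kinase, stood at 53.9 to 72.4 CPM, then at 153, 36.1, 133 and 91.5 CPM, lowest in deleted replicate 2 (log2 fold change 0.73 ± 0.38, edgeR adjusted p = 0.255). Without deleted replicate 2 it was called higher (1.01, adjusted p = 0.0147), as it was without 1 and 2 (0.85, 0.016), and without deleted replicate 1 it was 0.48. Fgfr4 had 0 to 2 reads in intact and 0 to 11 in deleted libraries, and Spry3 had 0 in all.

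Of 11 ERBB ligands 6 were tested and edgeR and DESeq2 called 0, where edgeR called 7.90% of all tested genes. In edgeR 0 of the 6 had an unadjusted p under 0.05, against 26.2% of all tested genes. Among the ligands Areg, amphiregulin, had the most reads per length. It stood at 13.7 to 20.1 CPM in intact cultures, then at 1.33, 31.4, 19.5 and 45.0 CPM in deleted replicates 1 to 4 (log2 fold change 0.58 ± 0.74, edgeR adjusted p = 0.656). It was 0.97 without deleted replicate 1 (0.0524), 0.096 without deleted replicate 4, and called higher without deleted replicates 1 and 3 (1.23, adjusted p = 0.0087). Nrg1, a ligand of Erbb3 and Erbb4, had 2 to 12 reads in intact and 0 to 3 in deleted libraries and was not tested.

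Among adaptors, Shc1 and Gab2 were called higher. Shc1, which couples receptors to GRB2, stood at 18.2, 21.8, 21.6 and 18.4 CPM in intact cultures, then at 40.8, 132.5, 50.7 and 54.96 CPM in deleted replicates 1 to 4. All deleted libraries were above the intact ones, deleted replicate 2 most. Its log2 fold change was 1.801 ± 0.36 (edgeR adjusted p = 0.024), and 1.29 without deleted replicate 2. That library also had the highest summed mesenchymal markers (783 CPM, mainly Col3a1, Acta2, Thbs2 and Dcn), whose part in the Shc1 level was not tested. Gab2, a docking protein, went from 47.1 ± 4.91 to 77.2 ± 7.62 CPM (0.71 ± 0.12, adjusted p = 0.0147). Shc2, a related adaptor of neurons, stood at 7.63 to 10.9 CPM in intact libraries, above 3.36, 6.15, 2.80 and 1.04 CPM in deleted libraries, and was not called by edgeR with all libraries (-1.45 ± 0.44, adjusted p = 0.0804). It was called by DESeq2 (0.0106), by voom without and with sample weights (0.039 and 0.0104), and by edgeR without deleted replicate 2 (-1.90, adjusted p = 0.0183) or 1 and 2 (-2.19, 0.0103). Shc3, the other neuronal adaptor, stood at 62.4 ± 5.96 and 65.8 ± 15.4 CPM (adjusted p = 0.813). Shc2 and Shc3 were picked after their values were seen. In the cascade, Rps6ka2, a ribosomal S6 kinase that ERK activates, was called higher, from 24.6 ± 3.88 to 47.1 ± 7.41 CPM (0.94 ± 0.16, adjusted p = 0.0147). Calls by edgeR ended without any 1 intact library for Shc1 (adjusted p up to 0.0885), without intact replicate 2, 3 or 4 for Gab2 (up to 0.0693) and Rps6ka2 (up to 0.0596), and with littermates summed for all 3 (0.0969, 0.0675 and 0.0712). Gab2 also lost its call with total counts as the scaling (0.0718).

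Among 20 tested inhibitors outside the Sprouty family, Dusp5 was called higher and Shisa2 lower. Dusp5, a nuclear phosphatase of ERK, stood at 6.63, 2.57, 6.16 and 2.66 CPM in intact cultures, then 17.1, 21.5, 24.3 and 11.7 CPM in deleted replicates 1 to 4 (log2 fold change 2.05 ± 0.39, edgeR adjusted p = 0.0195). It was called in 22 of the 24 settings tried, losing the call without intact replicate 2 or 4 (up to 0.0708). Shisa2, which holds FGF and Wnt receptors back in the endoplasmic reticulum, stood at 4.21, 5.02, 3.03 and 3.84 CPM and then at 1.33, 1.38, 1.54 and 1.39 CPM (-1.51 ± 0.26, adjusted p = 0.0147), losing the call without intact replicate 1, 2 or 4 (up to 0.0657) and with littermates summed (0.0808). Dusp6, the cytoplasmic phosphatase often used as a readout of FGF signalling, was picked after its values were seen. Its means were 625 ± 218 and 716 ± 255 CPM (0.20 ± 0.34, adjusted p = 0.752). The sign turned in 4 of the 23 alternatives. The median over these inhibitors was 0.20.

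Among the 20 tested inhibitors, 2 had all deleted libraries higher and 2 all lower, while 19.9% of all tested genes did not overlap. Of these, Il17rd and Lrig1, receptor-level inhibitors, were also picked after their values were seen. Neither was called by edgeR with all libraries, and both were by DESeq2 (adjusted p = 0.035 for Il17rd and 0.00598 for Lrig1). Il17rd, the FGF receptor antagonist also called Sef, stood at 46.6, 40.4, 41.4 and 29.1 CPM in intact cultures, then 14.2, 2.02, 24.5 and 2.17 CPM in deleted replicates 1 to 4 (log2 fold change -1.85 ± 0.73, edgeR adjusted p = 0.15). Its value was -2.65 without deleted replicate 3 (0.0703) and -4.23 without deleted replicates 1 and 3 (0.0003). Lrig1, which drives ERBB receptors to degradation, stood at 319.6, 282, 340.5 and 228 CPM and then at 858, 629, 399.8 and 419 CPM (0.98 ± 0.27, edgeR adjusted p = 0.0571, and 0.0432 without deleted replicates 1 and 3).

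Of 13 tested transcription factor genes that respond to ERK, edgeR called 0, against 7.90% of all tested genes. In edgeR 1 on each side had an unadjusted p under 0.05, against 15.8% of all tested genes higher and 10.4% lower. DESeq2 called 2200 of all 13498 genes and 1 of these 13. Etv5, the most abundant, stood at 384 ± 39.4 and 455 ± 136 CPM (log2 fold change 0.24 ± 0.21, edgeR adjusted p = 0.501). Elk1, the gene DESeq2 called, stood at 24.2 to 29.1 CPM in intact and 32.7 to 39.3 CPM in deleted libraries, without overlap (0.46 ± 0.12, edgeR adjusted p = 0.0511), and was called in 6 of the 24 settings, among them without deleted replicate 1 (0.0347) or 2 (0.0293). The median over the 13 was 0.13.

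**Figure D4:**
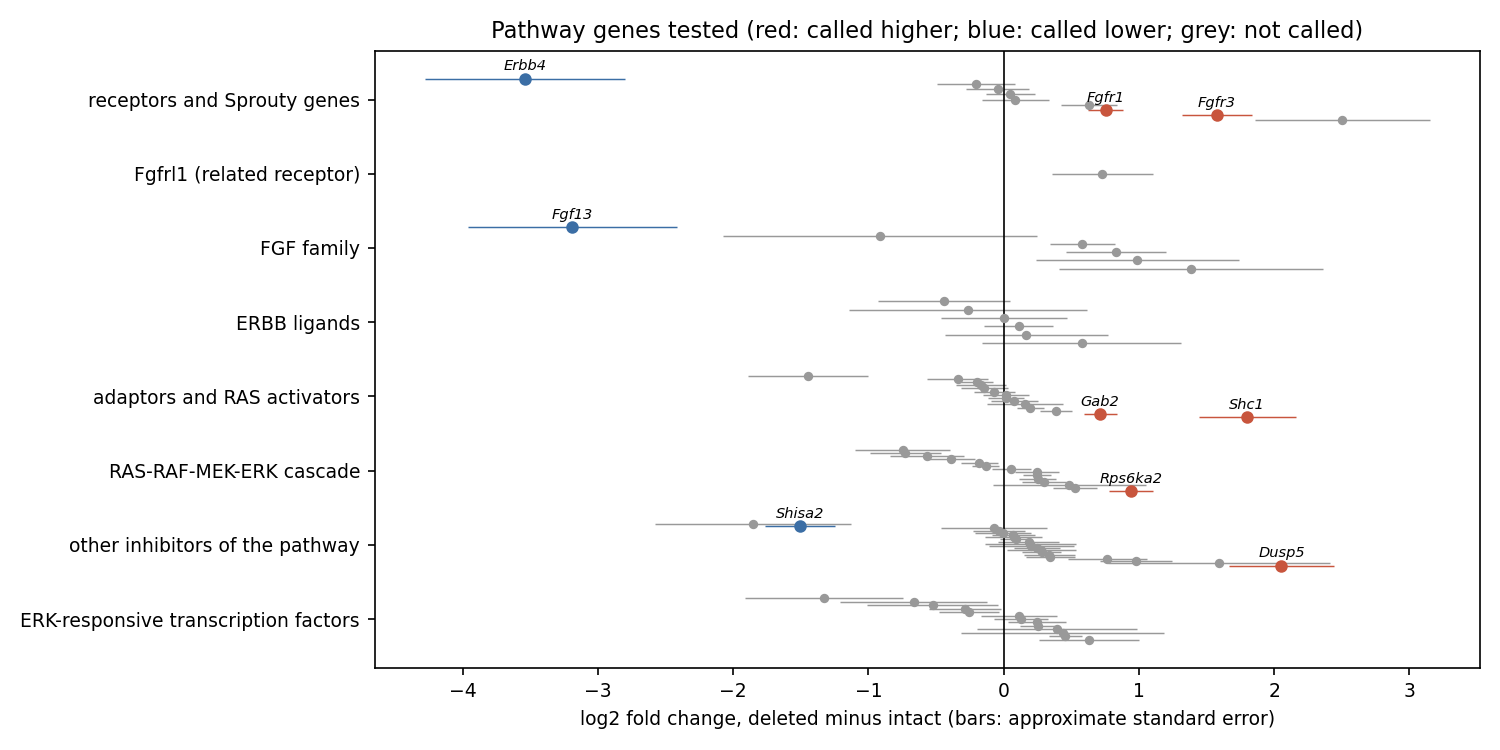
Log2 fold change of each tested gene (horizontal axis, deleted minus intact, with its approximate standard error), grouped by role. Called genes are coloured and named, 6 of them outside the receptor and Sprouty genes, and most others lie near 0.

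**Figure D5:**
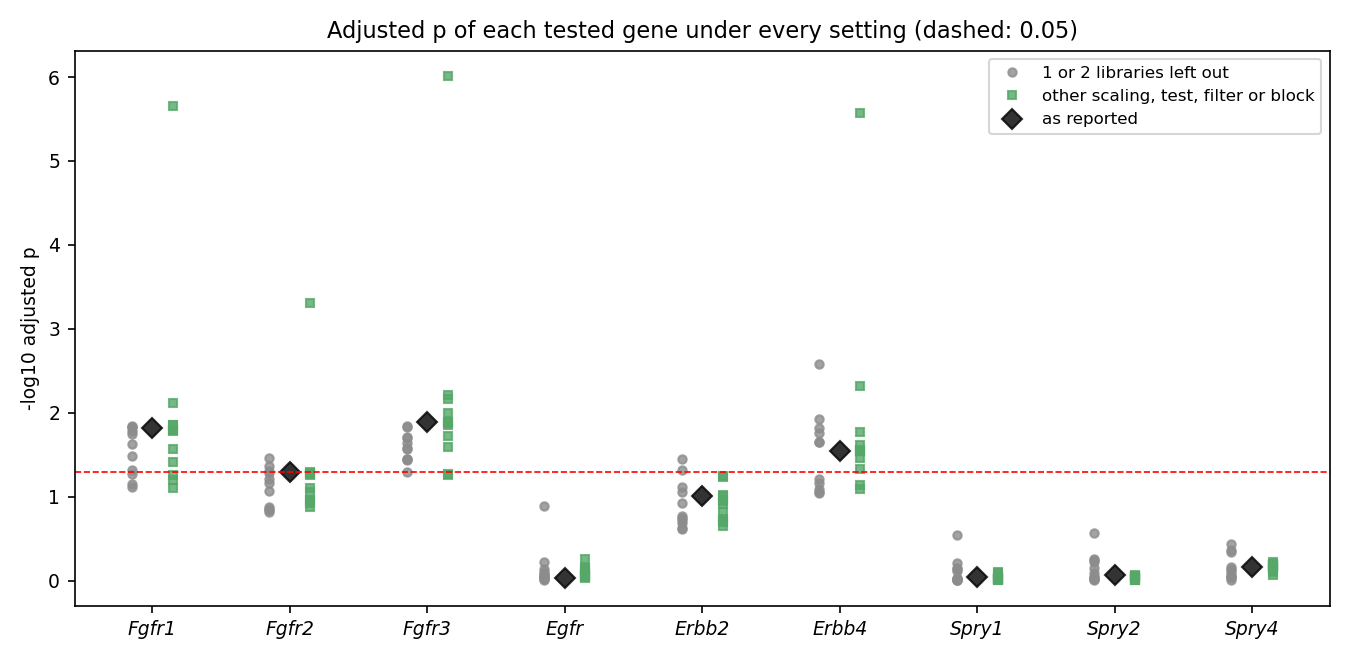
Adjusted p (vertical axis, -log10) of the 9 tested genes with the fit as reported (black), with 1 or 2 libraries left out (grey) and under other scalings, tests, filters or blocks (green). Fgfr3 is past the dashed line at 0.05 in 21 of 24 settings, Fgfr1 in 18, Erbb4 in 17 and Fgfr2 in 4, and Egfr and the Sprouty genes in none.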

How the data were processed

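Polyadenylated RNA was sequenced as 100 bp single-end reads, per the labels' protocols. Values were deposited as raw counts of reads by Entrez gene for 8 libraries, with gene lengths and no normalization by the authors, and all 8 single-library files equalled the table. The submitters' processing notes name the build mm10, featureCounts and CASAVA 1.8.2. An aligner and a strand option are not given in the sources used here. Symbols came from a RefSeq table of GRCm38.p6 (25275 of 27179 identifiers matched) and overlapping exons from GENCODE.

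Genes were tested with edgeR 4.0.16 (R 4.3.3), using filterByExpr with a minimum count of 10, TMM scaling and robust quasi-likelihood F tests without covariates. Calls needed an adjusted p under 0.05 (Benjamini-Hochberg, 13498 genes). Errors of fold changes are approximate standard errors that restate the test. Fold changes use a prior count of 0.125, log2 CPM a prior count of 2 and ratios a pseudocount of 0.5 counts. Depth was 10687817 to 22444359 counts a library, and limits from counts cover counting error only.

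The members and gene lists were chosen with earlier results of these data known. All 10 genes were named, and from each pathway list up to 4 called genes by p, or the one with the most reads per length in intact libraries where none was called. Alternatives were other scalings, DESeq2 1.42.0, limma 3.58.1 (voom, sample weights, litter as a random block), littermates summed, a block for replicate number, other filters, mitochondrial genes left out, and libraries left out. The procedure was tested on simulated data.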

Additional observations from a re-analysis of the deposited data

Results flagged for a closer look

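In groups of 4 libraries, 54 of which were looked at, a library was listed where its gap to the nearest other was large for the range of its group, which chance gives in about 1 in 20 groups. Erbb2 stood at 9.16 CPM in intact replicate 4, against 11.7 to 12.1 CPM in the other intact libraries. Shc1 stood at 132.5 CPM in deleted replicate 2, against 40.8 to 54.96 CPM in the other deleted ones. Rps6ka2 stood at 58.2 CPM in deleted replicate 1, against 42.5 to 43.9 CPM.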

How the results depend on the processing

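The 3 calls among the 10 genes became 0 with littermates summed and 0 with the replicate block, and 0 to 4 with 1 library left out. Among all genes, 1066 calls became 673 with total counts alone (309 higher, 364 lower), 2200 by DESeq2, 2283 with voom sample weights, 414 with litter as a random block, 193 with littermates summed, 319 with the replicate block, and 2299 and 2730 without deleted replicates 1 and 3 or 1 and 2. Leaving out 1 library gave 189 to 2182. Pathway calls went from 6 to 13 by DESeq2, 12 with sample weights, 1 with littermates summed, 3 with the replicate block, 18 and 16 without those pairs, and 0 to 13 with 1 library left out. The causes were not tested.

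The replicate block moved the adjusted p of Fgfr1 to 0.055, Fgfr3 to 0.0531 and Erbb4 to 0.073. Replicate numbers did not pair the samples. Deviations of same-numbered libraries correlated at 0.096, 0.221, 0.11 and 0.331, all above 0, and those of different numbers at -0.27 to 0.251. Not every library correlated best with its own number. Whether same-numbered libraries shared a batch was not tested.

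Some uncalled values changed sign. With total counts alone Spry1 was at -0.10 and Spry2 at -0.076. With sample weights Egfr was at 0.16 and Dusp6 at -0.040, and Areg was at -0.35 by voom and -0.57 with litter as a random block. With 1 library left out, Egfr ran from -0.21 to 0.094, Spry1 from -0.088 to 0.14, Spry2 from -0.10 to 0.28, Spry4 from -0.44 to 0.020 and Dusp6 from -0.036 to 0.39. Without deleted replicates 1 and 3, Spry1 was at -0.26, Spry2 at -0.24, Etv5 at -0.13 and Fgf1 at -0.0015. Without 1 and 4, Spry1 was at -0.035, Spry2 at -0.26, Spry4 at 0.068 and Fgf1 at -0.52. Without 1 and 2, chosen after seeing the data, Egfr was at 0.31, Spry1 at -0.0054 and Dusp6 at -0.11. Depth limited Erbb3, Fgf2, Nrg1 and Erbb4 in deleted libraries.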
